A study of Mus musculus with 137 samples.

Results

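Expression of Hif1a and of 9 genes known to be induced in hypoxia (Vegfa, Slc2a1, Egln3, Bnip3, Pdk1, Adm, Ndrg1, Car9 and Ankrd37) was followed in duodenal crypts and villi of mice exposed to hexavalent chromium, Cr(VI). These 10 members were chosen by gene symbol among the 21450 genes of the table and are read by 21 of its 30146 probes. Where a member had several probes, the one with the highest total count was used. All 10 members passed the filter on low counts, with 20 of their 21 probes. Female B6C3F1 wildtype mice drank water with 0, 0.1, 1.4, 5, 20, 60 or 180 ppm Cr(VI), given as sodium dichromate dihydrate, for 7 days (day 8) or 90 days (day 91), and the untreated mice differed from the others only in receiving no added Cr(VI). Crypts and villi were scraped from formalin-fixed, paraffin-embedded sections, and their RNA was counted with TempO-Seq, an assay in which pairs of targeted oligomers are ligated on the RNA and sequenced. The 71 crypt and 66 villus libraries came from 71 mice, of which 66 gave both compartments, and formed 28 groups of 4 to 6 mice by compartment, day and concentration. The age of the mice was not given in the sources used here.

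HIF-1 alpha, the protein made from Hif1a, is hydroxylated in the presence of oxygen by prolyl hydroxylases that need iron, and the hydroxylated form is bound by the von Hippel-Lindau protein and degraded. When hydroxylation stops the protein accumulates, pairs with ARNT and binds hypoxia response elements, whose core letters are ACGTG or GCGTG, near genes for glucose uptake, glycolysis, pH control, blood vessel growth and mitophagy. Much of this control acts on the protein, so the level of Hif1a mRNA does not by itself give its activity, and the villus is known for low oxygen at its tip.

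The sequences before the start sites of members on which the results turn are shown so that these letters can be seen. They were read from a table of RefSeq promoters on GRCm38.p6, in which 9 of the 10 members were matched, with 11 start sites between them; no sequence of Ndrg1 was used here. Capitals mark ACGTG or GCGTG on either strand, so that CACGT and CACGC are the same letters read from the other strand, and CACGTG holds ACGTG on both. Of 32851 promoters in the table, read over the 250 bases before each start, 16.6% held ACGTG, 28.2% held GCGTG and 38.6% held either, and 6.02% held the palindrome CACGTG. Counted in the same way, 7 of the 11 start sites of members held ACGTG and 9 of 11 held either. The Hif1a sequence (chr12:73907617-73907866, plus strand) lies inside the span of the GENCODE gene (chr12:73901375-73947530) and outside its exons, and those of Egln3 (chr12:54203875-54204124, minus strand) and of the first Vegfa start (chr17:46032378-46032627, minus strand) lie just before the genes (chr12:54178981-54203860 and chr17:46016993-46032369). For Slc2a1 (gene chr4:119108711-119137983) a 30-base site across the first GENCODE exon base is shown (chr4:119108696-119108725, plus strand), and for Car9 (gene chr4:43506966-43513729) a 30-base site inside the first GENCODE exon and before the RefSeq start (chr4:43506995-43507024, plus strand).
Hif1a: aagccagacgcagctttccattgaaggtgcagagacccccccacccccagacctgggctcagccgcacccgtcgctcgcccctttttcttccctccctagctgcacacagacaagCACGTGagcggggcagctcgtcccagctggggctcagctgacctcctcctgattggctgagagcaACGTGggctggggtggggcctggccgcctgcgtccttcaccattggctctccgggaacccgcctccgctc
Egln3: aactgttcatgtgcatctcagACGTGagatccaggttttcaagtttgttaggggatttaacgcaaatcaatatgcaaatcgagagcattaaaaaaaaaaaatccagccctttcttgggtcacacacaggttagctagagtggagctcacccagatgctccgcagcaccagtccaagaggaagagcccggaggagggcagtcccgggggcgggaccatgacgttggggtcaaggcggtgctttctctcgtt
Vegfa: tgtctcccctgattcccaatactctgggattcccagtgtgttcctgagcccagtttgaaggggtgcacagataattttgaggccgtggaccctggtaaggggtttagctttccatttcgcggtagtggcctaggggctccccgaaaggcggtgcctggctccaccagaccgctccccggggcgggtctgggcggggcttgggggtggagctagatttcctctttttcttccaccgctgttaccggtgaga
Slc2a1: agtcccgccccggACGTGctccccaggccc
Car9: cctatttccgatgCACGTacagcccgtcca
The Hif1a sequence held CACGTG and a second ACGTG, and that of Egln3 held ACGTG once. The first Vegfa start held neither motif in this window. A second Vegfa start, not shown, held both, in letters that lie inside a GENCODE exon of the gene. Bnip3 and Ankrd37, with downward trends in day 8 villi, are not shown either. Counted on either strand, Bnip3 held ACGTG 2 times and GCGTG 3 times, and Ankrd37 held each 2 times. A match of letters is a description and not a site shown to be bound.

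Each library held between 1463938 and 7199801 counts (median 3592983). Levels are given in CPM, the count relative to a library size scaled by TMM (a scaling for composition), with mean ± SD over mice. Differences come from one edgeR quasi-likelihood fit of all 28 groups over 26365 probes, and a difference was called when its p adjusted by the Benjamini-Hochberg method over all of these probes was below 0.1. Since every library held RNA of many cells, fewer cells of a type and less RNA per cell cannot be told apart.

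The compartments were checked against their markers. In untreated day 91 mice the summed level of 9 crypt markers (the most abundant being the Paneth cell gene Defa22) was 8353 ± 3458 CPM in crypts (n = 5) and 1219 ± 818 CPM in villi (n = 4), and that of 10 villus markers (led by the fatty acid binding protein gene Fabp2) was 38480 ± 9564 and 71480 ± 9878 CPM. At day 8, 2 untreated libraries went against their labels, the villus of mouse 48 with 11890 CPM of crypt and 43550 CPM of villus markers, and the crypt of mouse 49 with 1516 and 71220 CPM. Calls of members at single concentrations on day 8 are given with and without both, and for trends and gene lists the calls that depended on them are named. Pancreatic acinar markers (14 measured, led by Cpa1) varied from 10.91 to 160400 CPM among untreated crypts of day 91, and none of the 14 was called at 60 or 180 ppm in either compartment on either day. With the acinar sum as a covariate, all 45 calls of members kept their direction and stayed below the threshold.

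Without exposure, edgeR called 1 member between compartments over both days. At day 8 it called no member between villus and crypt, against 0.637% of all probes, and 1 member had an unadjusted p below 0.05 and was called by DESeq2. That member was Vegfa, the gene of a secreted factor for blood vessel growth, which was at 46.4 ± 15.5 CPM in villi and 23.3 ± 7.03 CPM in crypts (n = 5 each). Its untreated villi read 20.2, 43.9, 54.5, 56.4 and 56.9 CPM and its crypts 14.8, 20.2, 20.3, 29.2 and 31.8 CPM, so that only 1 villus fell among the crypts. That villus was the library of mouse 48. The villus excess of Vegfa was 1.01 on the log2 scale (SE 0.35, edgeR adjusted p = 0.186), and it passed the threshold without both doubtful libraries (1.29, SE 0.38, adjusted p = 0.0274) and with mouse as a block (1.03, SE 0.33, adjusted p = 0.0666). At day 91, Car9, a membrane carbonic anhydrase that acidifies the outside of the cell, was the 1 member called, with 126 ± 48.4 CPM in villi and 63.2 ± 15.9 CPM in crypts (log2 difference 0.98, SE 0.35, adjusted p = 0.0663), where 3.89% of probes were higher in villi and 6.98% lower. The 4 villi read 56.2, 129, 159 and 159 CPM and the 5 crypts 41.6, 58.0, 64.4, 66.3 and 85.6 CPM, and 1 villus lay among the crypts. The call was lost when mouse 3, 5, 6 or 8 was left out (edgeR adjusted p 0.144 to 0.273) and with probes of a gene summed (adjusted p = 0.169), and with the depth covariate in the fit, which is each library's number of detected probes once all are thinned to the same total (adjusted p = 0.258). Egln3, at 34.0 ± 13.6 CPM in villi and 17.2 ± 3.77 CPM in crypts on day 91, was called in 5 alternatives (DESeq2 1.11, adjusted p = 0.0591) and Vegfa with probes summed (1.09, adjusted p = 0.0136) and with thinned counts (0.83, adjusted p = 0.0993), though neither in the fit used here. Hif1a was close to equal in the compartments (log2 difference 0.05 at day 8 and 0.20 at day 91, SE 0.27 and 0.30).

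Responses of the members to Cr(VI) were concentrated at 20 ppm and above, and differed in direction between members. All doses of a compartment and day share the same untreated libraries, so their results are not independent. In day 8 crypts no member was called at 0.1, 1.4, 5, 20 or 60 ppm, where 0.0152%, 0.00379%, 0.0152%, 0.247% and 2.14% of all probes were. At 180 ppm 1 member (Vegfa) was lower and none higher, against 3.08% and 1.05% of probes, and the same member was called in the trend over the 7 concentrations, against 5.78% lower and 3.69% higher. In day 91 crypts no member was called at 0.1, 1.4, 5 or 20 ppm (0%, 0%, 0.00379% and 0.535% of probes). At 60 ppm 3 members were higher (Slc2a1, Ndrg1 and Car9) and none lower, against 9.78% and 4.73% of probes, and at 180 ppm 1 was higher (Slc2a1), against 3.8% higher and 2.69% lower. The day 91 crypt trend was upward for 3 members (Hif1a, Slc2a1 and Car9) and downward for none, against 10.7% and 7.86% of probes.

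No member was called in day 8 villi at 0.1, 1.4 or 5 ppm (0%, 1.52% and 0.357% of probes). At 20 ppm 2 members were higher (Hif1a and Egln3; 1.11% of probes higher, 1.5% lower). At 60 ppm 3 were higher (Hif1a, Egln3 and Car9) and 1 lower (Vegfa), against 2.94% and 3.63%, and at 180 ppm 2 were higher (Hif1a and Car9) and 2 lower (Vegfa and Bnip3), against 2.5% and 3.46%. The day 8 villus trend was upward for 3 members (Hif1a, Egln3 and Car9) and downward for 3 (Vegfa, Bnip3 and Ankrd37), against 5.86% and 8.19% of probes. None was called in day 91 villi at 0.1 or 1.4 ppm (0.0341% of probes at each). At 5 ppm Slc2a1 was higher and Egln3 and Car9 lower, against 7.57% and 3.32% of probes. Hif1a and Slc2a1 were higher at 20 and 60 ppm, where 10.2% of probes were higher at either concentration and 4.49% and 5.25% lower, and at 180 ppm Hif1a, Slc2a1 and Ndrg1 were higher, against 8.9% higher and 4.95% lower. The day 91 villus trend was upward for 3 members (Hif1a, Slc2a1 and Ndrg1) and downward for 2 (Vegfa and Egln3), against 17% and 9.27% of probes. In the 14 dose comparisons in which edgeR called no member, between 0 and 4 members had an unadjusted p below 0.05, and DESeq2 made 4 calls, of Vegfa in day 8 crypts at 20 ppm and, in day 8 villi, of Egln3 at 1.4 ppm and of Egln3 and Bnip3 at 5 ppm.

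**Figure D1:**
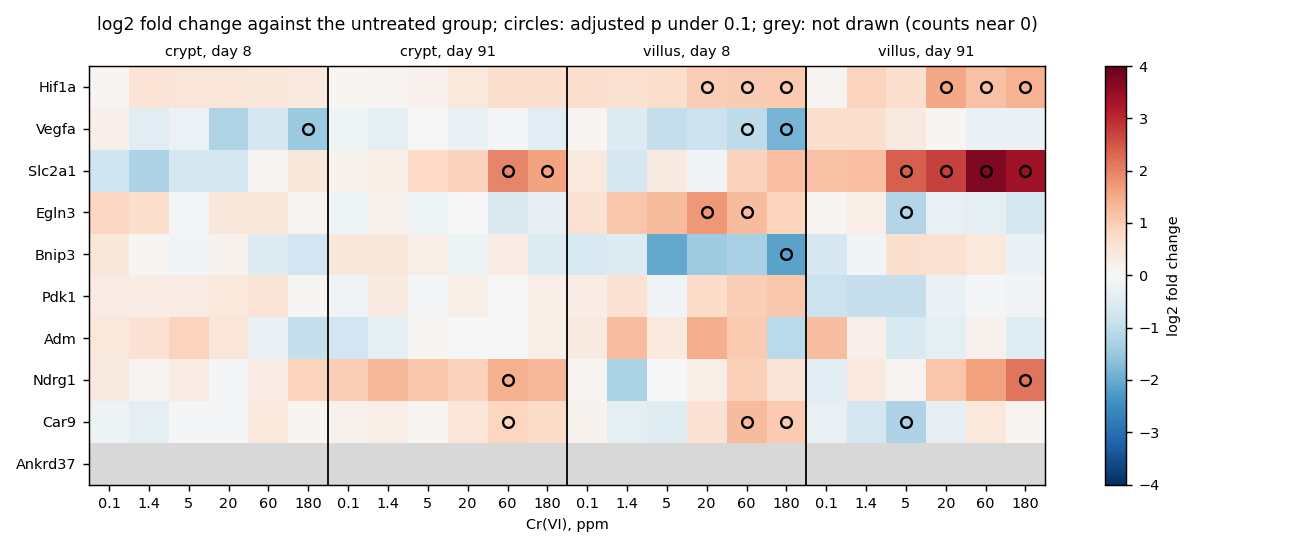
Log2 difference from the untreated group (colour) for each member (vertical axis) and each Cr(VI) concentration in ppm (horizontal axis), in crypts and villi at day 8 and day 91, with circles at calls (adjusted p below 0.1). Hif1a is circled in villi at 20 ppm and above on both days, the circles of Slc2a1 are all on day 91 and those of Vegfa all on day 8. Ankrd37, with most libraries at 0, is left grey.

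The median member moved little in the crypts (log2 0.07 at 180 ppm on day 8 and 0.27 on day 91, beside -0.04 and -0.00 for all probes) and was at 0.71 in day 8 villi and -0.01 in day 91 villi at 180 ppm, beside -0.10 and 0.11 for all probes. All probes of day 91 villi were shifted upward (median 0.43, 0.33, 0.23 and 0.11 at 5, 20, 60 and 180 ppm). The untreated day 91 villi had the fewest detected probes, with a median of 13922.5 after thinning to equal depth, against 18764, 18655, 18151 and 17712 at these concentrations. The shift moved with the scaling. With the size factors of DESeq2 in place of TMM, the share of called probes that were higher went from 69.5%, 69.4%, 66.0% and 64.3% at 5, 20, 60 and 180 ppm to 50.9%, 41.9%, 36.0% and 40.8% in day 91 villi, and from 67.4% and 58.6% at 60 and 180 ppm to 40.2% and 44.3% in day 91 crypts. It also moved from 64.7% to 45.1% in the villus and 57.7% to 39.6% in the crypt trend of day 91, from 25.5% to 37.5% in day 8 crypts at 180 ppm, from 34.2% to 56.8% and from 29.8% to 47.2% in day 8 villi at 1.4 and 5 ppm, from 69.5% to 32.5% in day 91 crypts at 20 ppm and from 35.8% to 52.1% between untreated compartments on day 91. At 1.4 ppm in day 91 villi, with 9 calls, it moved from 77.8% to 21.4%, and at 5 ppm in day 8 crypts the calls went from 1 higher and 3 lower to 1 higher and 0 lower. Relative to the median probe, Hif1a in day 91 villi was higher by 1.21, 0.96 and 1.28 and Slc2a1 by 2.40, 3.48 and 3.28 at 20, 60 and 180 ppm.

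Hif1a, which encodes the oxygen-regulated subunit itself, rose in the villi on both days. The 4 untreated villi of day 91 read 94.9, 108, 111 and 134 CPM. The 5 libraries at 20 ppm read 253, 260.1, 328, 328 and 458 CPM. At 60 ppm they read 226, 229, 233, 288 and 293 CPM. No exposed library of either concentration overlapped the untreated ones. At 180 ppm the villi read 219, 244, 313, 328 and 355 CPM, again all above. The log2 differences were 1.54 (SE 0.30, edgeR adjusted p = 5.8e-05), 1.19 (SE 0.30, adjusted p = 0.00219) and 1.38 (SE 0.30, adjusted p = 0.000293), or 2.90-, 2.27- and 2.61-fold. At 1.4 ppm the mean was already 206 ± 69.5 CPM (141 to 324, all above the untreated libraries), yet the difference of 0.88 (SE 0.30) had an adjusted p of 0.291, and at 5 ppm it was 174 ± 61.9 CPM, a difference called with probes of a gene summed alone (0.70, adjusted p = 0.0535).

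Hif1a in day 8 villi read 72.1, 78.3, 106, 130.4 and 133 CPM without Cr(VI) and 178, 199, 213 and 273 CPM at 180 ppm, and the groups did not overlap. At 20 ppm the 4 villi read 71.1, 174, 283 and 299.5 CPM, of which the lowest lay below every untreated library. At 60 ppm the 5 villi read 132, 180.0, 203, 216 and 313 CPM, with 1 among the untreated. The differences were 0.99 (SE 0.29, adjusted p = 0.0552) at 20 ppm, 1.004 (SE 0.27, adjusted p = 0.0149) at 60 ppm and 1.04 (SE 0.29, adjusted p = 0.0158) at 180 ppm, and 0.99, 1.02 and 1.05 (adjusted p 0.0817, 0.0244 and 0.0218) without the villus of mouse 48 and the crypt of mouse 49. The call at 20 ppm was lost when mouse 46, 49, 366 or 367 was left out (adjusted p 0.123 to 0.220) and when compartments and days were fitted separately (adjusted p = 0.216), and that at 60 ppm without mouse 450 (adjusted p = 0.108).

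The levels of Hif1a over all 28 groups were ordered from 97.4 CPM in untreated day 91 crypts to 325 CPM in day 91 villi at 20 ppm. In day 8 crypts they were 101 ± 25.3, 105 ± 50.4, 147 ± 24.96, 143 ± 44.1, 141 ± 36.8, 137.4 ± 20.7 and 133 ± 46.4 CPM from 0 to 180 ppm. In day 91 crypts they were 97.4 ± 22.4, 103 ± 17.8, 106 ± 21.6, 109 ± 18.3, 130.1 ± 28.2, 150.3 ± 25.3 and 153 ± 49.96 CPM, a trend of 0.12 per concentration step on the log2 scale (SE 0.04, edgeR adjusted p = 0.0124) with no single concentration called in the fit used here. With separate fits Hif1a was called there at 60 ppm (0.58, adjusted p = 0.0191) and 180 ppm (0.63, adjusted p = 0.0170), as with probes of a gene summed (0.67, adjusted p = 0.0269, and 0.74, adjusted p = 0.0200). Day 8 villi were at 104 ± 28.3, 163 ± 69.9, 158 ± 40.3, 172 ± 76.3, 207 ± 106, 209 ± 66.6 and 216 ± 40.9 CPM, with a trend of 0.15 per step (SE 0.04, adjusted p = 0.00257) that missed the threshold with ppm as scores (adjusted p = 0.105). Day 91 villi were at 112 ± 16.1, 121 ± 26.9, 206 ± 69.5, 174 ± 61.9, 325 ± 82.3, 254 ± 33.8 and 292 ± 57.8 CPM, with a trend of 0.25 per step (SE 0.04, adjusted p = 6.5e-08). Neighbours in the order of the 28 means overlapped in all 27 pairs, for Hif1a as for each other member, and no pair of neighbours differed by more than the larger of their SDs. Neighbours in an order by mean are the closest groups, so this does not bear on groups further apart. The other 2 Hif1a probes were also called higher in day 91 villi at 60 ppm (1.49 and 1.48) and 180 ppm (1.51 and 1.44), and in the same 3 trends. At 180 ppm in day 8 villi they were at 1.12 (edgeR adjusted p = 0.00714) and 0.69 (adjusted p = 0.128), and at 60 ppm at 0.69 and 0.50 (adjusted p = 0.145 and 0.274), so that the day 8 calls did not extend to every probe. The first of them was called in day 91 crypts too, at 60 ppm (1.28, adjusted p = 0.000268) and 180 ppm (1.11, adjusted p = 0.00422), where the main probe was at 0.63 and 0.65 (SE 0.27 each, adjusted p = 0.132 and 0.184).

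**Figure D2:**
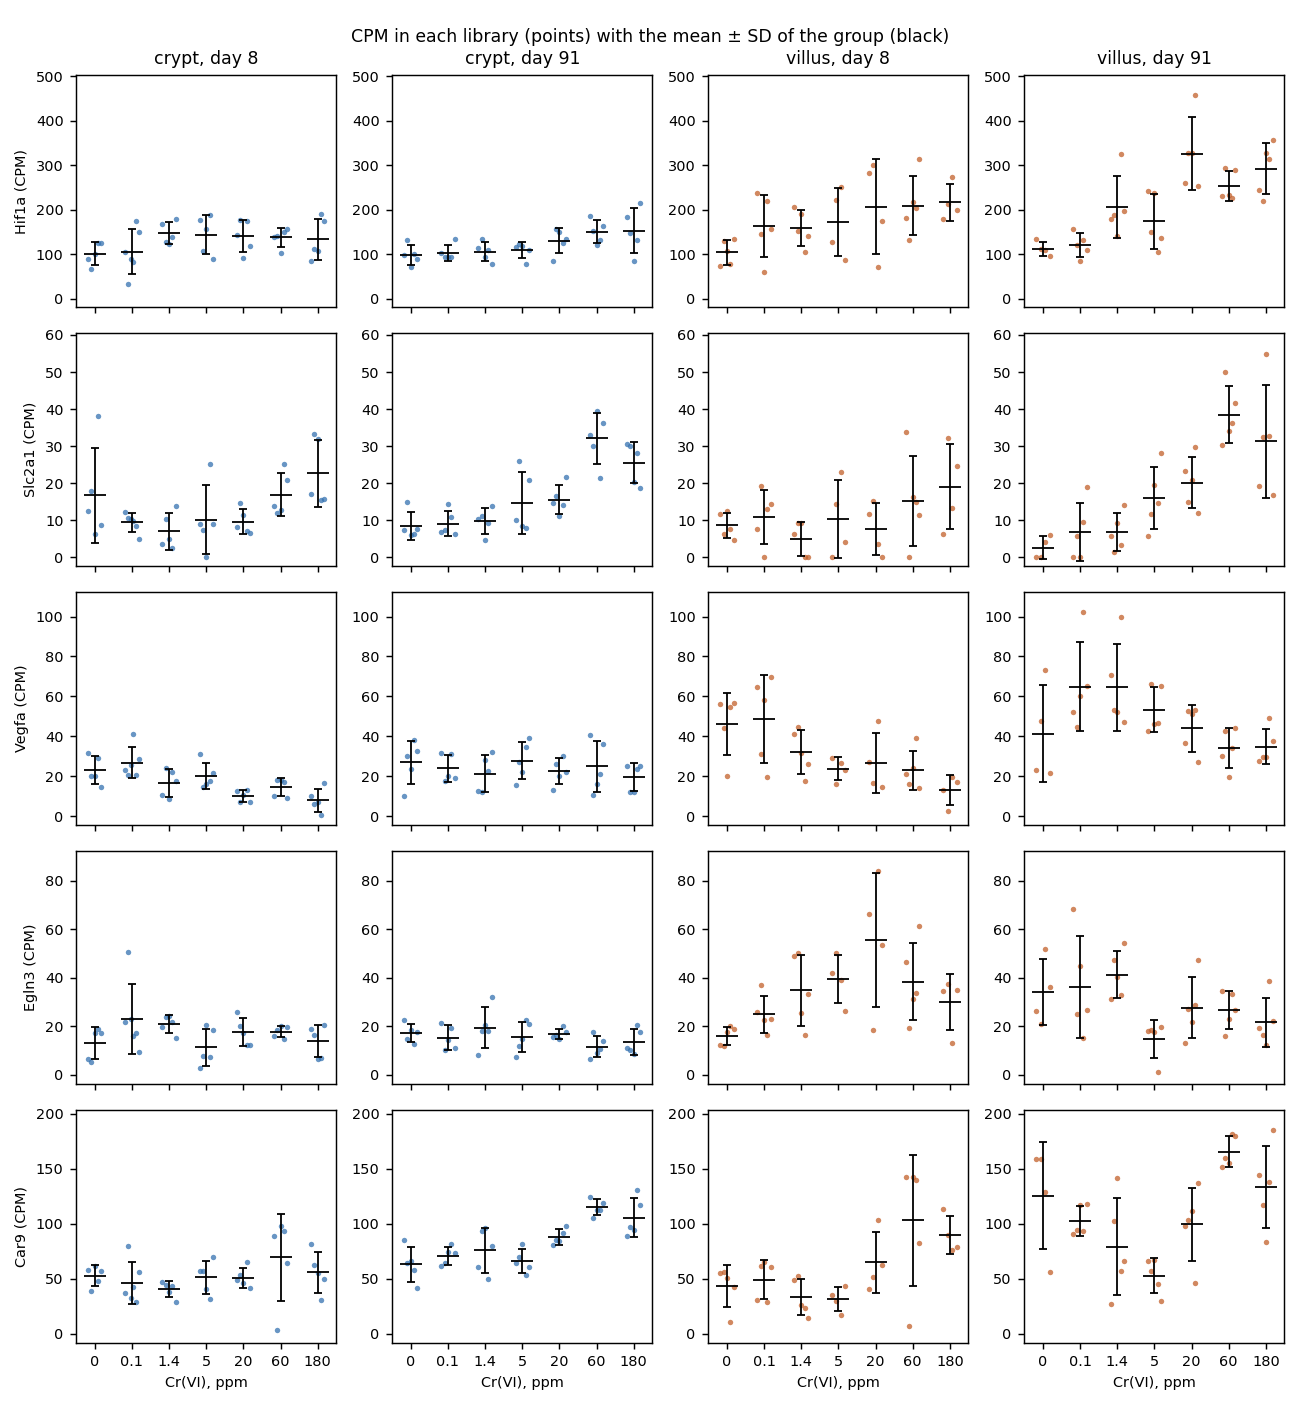
Levels of Hif1a, Slc2a1, Vegfa, Egln3 and Car9 (vertical axes, CPM) against Cr(VI) in ppm (horizontal axis, ordered concentrations) by compartment and day, with 1 point per library and the mean ± SD of each group in black. In day 91 villi every Hif1a library at 20, 60 and 180 ppm lies above the highest untreated one at 134 CPM, and every Slc2a1 library there above the highest untreated one at 6.12 CPM.

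Beside this rise, markers of other cells moved in day 91 villi at 180 ppm. Of 6 immune markers, 3 were higher and 1 lower, their sum (led by the plasma cell gene Jchain) being 461.7, 651, 779.1 and 1126 CPM in untreated villi and 1210, 1712, 1838, 2865 and 2961 CPM at 180 ppm, with no marker at 0 throughout. Of 10 villus markers 5 were lower, their sum being between 60080 and 82720 CPM untreated and between 30590 and 94770 CPM at 180 ppm. Of 7 smooth muscle and stroma markers 2 were higher and 2 lower, and of 9 crypt markers 1 was higher and 1 lower. The Brunner gland marker Muc6, called lower, was at 62.8 CPM in the untreated villus of mouse 5 and at 0 in the other 3, so that this call rests on 1 library. At 60 ppm 2 villus markers were higher and 4 lower, 2 immune markers higher and 1 lower, 1 smooth muscle and stroma marker higher and 3 lower, 3 crypt markers higher and 1 lower, and 1 of 2 goblet markers higher. The part of these markers in the levels of Hif1a, Slc2a1 and Ndrg1 there was not tested.

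Egln3, a prolyl hydroxylase that is itself induced by HIF and acts back on it, was higher in day 8 villi and, in calls that did not hold in every alternative, lower in day 91 villi. In day 8 villi it read 11.7, 12.5, 17.8, 18.7 and 20.0 CPM untreated. At 20 ppm it read 18.5, 53.7, 66.3 and 84.0 CPM, and 1 of these 4 lay among the untreated. At 60 ppm it read 19.5, 31.1, 34.0, 46.6 and 61.3 CPM, likewise with 1 overlapping. The differences were 1.75 (SE 0.38, edgeR adjusted p = 0.00526) and 1.28 (SE 0.38, adjusted p = 0.0294), or 3.36- and 2.43-fold, and 1.79 and 1.33 (adjusted p 0.0107 and 0.0424) without the doubtful libraries. At 60 ppm the call was lost without mouse 450 (adjusted p = 0.157). The villi at 5 ppm, with 26.3, 39.2, 41.9 and 50.1 CPM, all lay above the untreated ones, and this difference of 1.27 (SE 0.40) had an adjusted p of 0.172. It was called with DESeq2 (1.37, adjusted p = 0.0546) and with a mean count of at least 10 (1.29, adjusted p = 0.0940), as was that at 1.4 ppm (1.19, adjusted p = 0.0693, and 1.13, adjusted p = 0.0821) and, with thinned counts, again at 1.4 ppm (1.09, adjusted p = 0.0975). At 180 ppm Egln3 read 13.02, 34.4, 34.9 and 37.7 CPM (log2 difference from untreated 0.90, SE 0.40, adjusted p = 0.224). The untreated villi of day 91 were higher, at 21.1, 26.4, 36.3 and 52.1 CPM, and Egln3 was at 0.972, 17.5, 18.1, 18.4 and 19.8 CPM at 5 ppm. These groups did not overlap (difference -1.16, SE 0.41, adjusted p = 0.0706), and the call was lost with the depth covariate (-0.67, adjusted p = 0.571). From 20 to 180 ppm it was at 27.6 ± 12.6, 26.7 ± 7.72 and 21.7 ± 10.1 CPM, and the downward trend was 0.12 per step in size (adjusted p = 0.0654), lost without mouse 6 or 7 (adjusted p 0.282 and 0.115), with the depth covariate (-0.06, adjusted p = 0.641), with log10 total count as a covariate (adjusted p = 0.132), with edgeR's default form (adjusted p = 0.116) and with ppm as scores (adjusted p = 0.315). The upward day 8 villus trend (0.17 per step, adjusted p = 0.0213) was lost with the depth covariate (adjusted p = 0.101) and with ppm as scores, where its adjusted p was 1. In crypts Egln3 stayed between 11.3 and 23.0 CPM in the group means of both days, with no call.

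Slc2a1, the glucose transporter GLUT1, was higher on day 91 in both compartments, and its differences in villi were the largest in fold among the calls of members at single concentrations. Its untreated villi of day 91 were at 0, 0, 4.21 and 6.12 CPM. At 60 ppm they were at 30.2, 34.0, 36.2, 41.7 and 50.1 CPM, and at 180 ppm at 16.9, 19.2, 32.6, 32.6 and 55.0 CPM. Every library at these concentrations was above the untreated ones, as were those at 20 ppm (12.02, 14.96, 20.7, 23.3 and 29.7 CPM). The differences were 2.73 (SE 0.76, edgeR adjusted p = 0.0075), 3.71 (SE 0.71, adjusted p = 3.1e-05) and 3.39 (SE 0.72, adjusted p = 0.000257) at 20, 60 and 180 ppm. With 2 untreated libraries at 0 the size of these folds rests on few counts, and without untreated mouse 7 the differences were 3.48, 4.52 and 4.198. At 5 ppm Slc2a1 was at 15.9 ± 8.45 CPM (2.38, SE 0.80, adjusted p = 0.0509), of which the lowest library, at 5.87 CPM, lay among the untreated, and that call was lost with the depth covariate (adjusted p = 0.300).

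In day 91 crypts Slc2a1 read 6.12, 6.36, 7.28, 7.53 and 15.01 CPM untreated. It read 21.5, 30.1, 33.0, 36.2 and 39.6 CPM at 60 ppm and 18.7, 20.3, 28.1, 30.03 and 30.6 CPM at 180 ppm. Neither concentration overlapped the untreated crypts. The differences were 1.96 (SE 0.48, edgeR adjusted p = 0.00194) and 1.62 (SE 0.49, adjusted p = 0.0306), and the second was lost without mouse 6 (adjusted p = 0.105), in DESeq2 (adjusted p = 0.134), with counts thinned to equal totals (adjusted p = 0.131) and with edgeR's default form of the fit (adjusted p = 0.293), which also lost the first (adjusted p = 0.104). At 20 ppm Slc2a1 was called with separate fits (0.91, adjusted p = 0.0819). Trends were upward in day 91 crypts (0.33 per step, SE 0.06, adjusted p = 3.7e-05) and villi (0.60 per step, SE 0.09, adjusted p = 7.9e-09). On day 8 Slc2a1 was not called: at 180 ppm it was at 22.7 ± 9.02 CPM in crypts against 16.7 ± 12.8 untreated, and at 19.1 ± 11.5 CPM in villi against 8.58 ± 3.33 untreated. The highest untreated day 8 crypt, at 38.2 CPM, was above every crypt at 180 ppm. Without the doubtful libraries, both day 8 trends passed the threshold (0.19 per step, adjusted p = 0.0943, in crypts and 0.21, adjusted p = 0.0831, in villi). The crypt trend also passed it with ppm as scores (adjusted p = 0.0326), and that in villi with ppm as scores (0.0417), the acinar sum (0.0722) or the depth covariate (0.0744), summed probes (0.0747) and a mean count of at least 10 (0.0800).

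Pdk1, a mitochondrial kinase that inhibits pyruvate dehydrogenase and so slows the conversion of pyruvate to acetyl-CoA, passed the test at no concentration. Its log2 differences lay between -0.93 and 1.08 and its smallest adjusted p over the 24 dose comparisons was 0.287 (day 8 villi at 180 ppm, 15.9 ± 8.84 CPM against 7.36 ± 6.94). Its day 8 villus trend of 0.17 per step (SE 0.07, edgeR adjusted p = 0.110) was called in 5 of the alternatives, among them without the doubtful libraries (0.21, adjusted p = 0.0682).

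Car9, the carbonic anhydrase, was higher in day 8 villi. It read 10.2, 42.0, 50.7, 55.6 and 56.3 CPM untreated and 75.9, 78.7, 89.7 and 114 CPM at 180 ppm, with no overlap. At 60 ppm it read 7.23, 82.5, 139.6, 143 and 143 CPM, so that 1 library lay below all of the untreated ones and 4 above. The differences were 1.05 (SE 0.36, edgeR adjusted p = 0.0805) at 180 ppm and 1.26 (SE 0.34, adjusted p = 0.0141) at 60 ppm, and 1.12 and 1.34 (adjusted p 0.0713 and 0.017) without the doubtful libraries. The first was lost without mouse 49, 50, 526 or 528 (adjusted p 0.117 to 0.252), with the default form (0.116) and with separate fits (0.218). A second Car9 probe was also higher, by 1.90 at 60 ppm (adjusted p = 0.00102) and 1.68 at 180 ppm (adjusted p = 0.00771).

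In day 91 crypts Car9 read 41.6, 58.0, 64.4, 66.3 and 85.6 CPM untreated, 105, 113, 113, 119 and 124 CPM at 60 ppm and 88.4, 94.5, 97.2, 117 and 131 CPM at 180 ppm. Both concentrations lay wholly above the untreated crypts, by 0.86 (SE 0.32, edgeR adjusted p = 0.0712) and 0.74 (SE 0.32, adjusted p = 0.220) on the log2 scale. The call at 60 ppm held in 4 of 11 alternatives and with 1 of 10 mice left out, where adjusted p reached 0.508 and 0.216 (lost without mouse 5, 6, 7, 8, 402, 403, 404, 405 or 406), and the second probe was at 0.06 (SE 0.37). The upward trend (0.14 per step, SE 0.04, adjusted p = 0.0178) was lost with probes summed (0.08, adjusted p = 0.257), and the second probe had a trend of 0.02 (SE 0.05, adjusted p = 0.881). The course in day 91 villi was not even. Car9 read 56.2, 129, 159 and 159 CPM untreated and 29.5, 44.7, 56.8, 65.9 and 66.9 CPM at 5 ppm. A single untreated villus lay within the range at 5 ppm, and the difference was -1.23 (SE 0.36, adjusted p = 0.0195), lost with the depth covariate (adjusted p = 0.260). At 60 ppm it was back at 166 ± 13.9 CPM (0.41, SE 0.34, adjusted p = 0.525). The trend there, 0.07 per step (SE 0.05, adjusted p = 0.287), was called upward with ppm as scores (adjusted p = 0.0338). In day 91 crypts separate fits also called Car9 at 20 ppm (0.46, adjusted p = 0.0927) and 180 ppm (0.72, adjusted p = 0.00214).

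Vegfa fell on day 8 in both compartments. In villi it read 20.2, 43.9, 54.5, 56.4 and 56.9 CPM untreated and 2.49, 13.1, 16.9 and 19.7 CPM at 180 ppm, with no overlap, although the lowest untreated value is the library of mouse 48. At 60 ppm it read 13.9, 16.1, 21.1, 24.2 and 39.0 CPM. The differences were -1.85 (SE 0.41, edgeR adjusted p = 0.00114) and -1.02 (SE 0.36, adjusted p = 0.0908), and -2.05 and -1.21 (adjusted p 0.000218 and 0.0372) without the doubtful libraries. With each of 10 mice left out in turn the call at 60 ppm held in 2 cases, and it was lost without mouse 46, 47, 49, 50, 446, 447, 448 or 450 (adjusted p 0.127 to 0.265). It was also lost in 5 of 12 other alternatives, with DESeq2's size factors (adjusted p = 0.101), every probe of at least 1 count (0.120), the default form (0.127), probes summed (0.174) and separate fits (0.197). In crypts Vegfa read 14.8, 20.2, 20.3, 29.2 and 31.8 CPM untreated and 0.738, 5.85, 6.95, 9.88 and 16.5 CPM at 180 ppm, where 1 library overlapped. That difference was -1.47 (SE 0.41, adjusted p = 0.0212), and -1.34 (adjusted p = 0.0933) without the doubtful libraries. It was lost without mouse 49 or mouse 529 (adjusted p 0.103 and 0.167). Crypts at 20 ppm, with 6.8, 7.08, 10.7, 12.8 and 13.1 CPM, lay wholly below the untreated crypts but were not called (-1.20, SE 0.39, adjusted p = 0.302), except by DESeq2 (adjusted p = 0.0554) and with probes summed (adjusted p = 0.0575). Summed probes also called Vegfa lower in day 8 villi at 20 ppm (-1.07, adjusted p = 0.0627) and in day 91 villi at 60 ppm (-0.77, adjusted p = 0.0930). The trend was -0.29 per step in villi (SE 0.05, adjusted p = 1.3e-05) and -0.25 in crypts (SE 0.05, adjusted p = 0.000419). Both other Vegfa probes were called lower at 180 ppm on day 8 in villi (-2.94 and -1.90) and crypts (-1.91 and -2.69). Neither was called at 60 ppm in day 8 villi (-0.44 and -0.50).

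Markers of several cell types moved beside the day 8 calls. In day 8 crypts 7 of 10 villus markers were lower at 180 ppm, with sums of 26330, 27500, 30270, 40760 and 71220 CPM untreated and 8766, 9004, 12990, 14060 and 17200 CPM at 180 ppm, and 1 of the 10 was at 0 in all of the latter. In day 8 villi 5 of 10 were lower, with sums of 43550, 69260, 73770, 84860 and 89210 CPM and of 25830, 35500, 47080 and 56850 CPM. Endothelial markers (5 measured, led by Plvap) summed to 98.2 ± 14.7 CPM in untreated crypts and 55.8 ± 18.7 CPM at 180 ppm, with 1 of 5 lower in either compartment (Plvap in crypts, not called without the doubtful libraries, where its adjusted p was 0.166, and Tek in villi). Other markers lower at 180 ppm were Jchain (1 of 6 immune markers, -1.35) and the goblet cell gene Clca1 (1 of 2, -1.53) in crypts, and in villi the T cell gene Cd3e (1 of 6 immune markers, -3.17), Acta2 and Dcn (2 of 7 smooth muscle and stroma markers, -1.53 and -1.27) and Mmp7 (1 of 9 crypt markers, -1.77). The Brunner gland marker Muc6 was also called lower in villi, but it was at 160.6 CPM in untreated mouse 46 and at 0 in the other 4 untreated villi and in all 4 at 180 ppm, so that the call rests on 1 library. Without the doubtful libraries the calls of villus markers were kept, 7 of 7 in crypts and 5 of 5 in villi, as were those of Jchain, Clca1, Cd3e and Tek, while Acta2, Dcn and Mmp7 were lost. At 60 ppm in day 8 villi 4 of 10 villus and 3 of 9 crypt markers were lower, 1 immune marker was higher and 1 lower, and 1 goblet marker was higher. The calls of Hif1a, Egln3, Car9, Bnip3 and Vegfa in day 8 villi at 60 and 180 ppm come from the same libraries. Those of Hif1a and Egln3 at 20 ppm share the untreated libraries alone, and markers at 20 ppm are not given here. The part of these markers in the villus calls, or in the Vegfa call in crypts, was not tested.

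On day 91 Vegfa was not called at any concentration with its main probe, while the second Vegfa probe was lower in villi at 60 ppm (-1.44, SE 0.54, edgeR adjusted p = 0.066) and 180 ppm (-1.74, SE 0.56, adjusted p = 0.0279). It was at 26.9 ± 10.7 CPM in untreated crypts and 19.7 ± 6.85 CPM at 180 ppm. In villi it was highest at 0.1 and 1.4 ppm, with 64.8 ± 22.3 and 64.5 ± 21.7 CPM, against 41.2 ± 24.4 CPM untreated and 34.7 ± 8.87 CPM at 180 ppm, and the villus trend of -0.11 per step (SE 0.05, edgeR adjusted p = 0.0743) was lost without mouse 5 or 6 (adjusted p 0.123 and 0.497), with the default form (0.122), log10 total count (0.245) and the depth covariate (0.320). Both other Vegfa probes had a downward trend there (-0.31, adjusted p = 0.00038, and -0.19, adjusted p = 0.0385). Adm, which encodes the vessel-dilating peptide adrenomedullin, was near the limit of detection, with 48 libraries at 0 and group means between 0.692 and 7.88 CPM, and it was called nowhere with this probe (smallest adjusted p 0.510 over the dose comparisons). A second Adm probe, with 69 libraries at 0, had an upward trend in day 91 villi (0.85 per step, SE 0.30, adjusted p = 0.0301).

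Bnip3, a receptor for the removal of mitochondria, fell in day 8 villi. It read 6.00, 10.4, 12.3, 17.0 and 28.6 CPM untreated and 0, 2.23, 4.29 and 5.82 CPM at 180 ppm, and the groups did not overlap. The difference was -2.15 (SE 0.70, edgeR adjusted p = 0.0584), and -2.07 (adjusted p = 0.0892) without the doubtful libraries, with a trend of -0.31 per step (SE 0.09, adjusted p = 0.0133). The call at 180 ppm was lost without mouse 46, 526 or 529 (adjusted p 0.134 to 0.201), with the default form (0.137) and with separate fits (0.197), and the trend with ppm as scores (0.212). The second Bnip3 probe was at -1.31 at 180 ppm (SE 0.61, adjusted p = 0.248). Its trend in day 8 villi was -0.18 per step (SE 0.08, edgeR adjusted p = 0.184) and was not called. At lower concentrations Bnip3 was called lower in alternatives alone, at 5 ppm by DESeq2 (-2.30, adjusted p = 0.0666) and with thinned counts (-2.17, adjusted p = 0.0866), at 20 ppm with probes summed (-1.60, adjusted p = 0.0722) and at 60 ppm with thinned counts (-1.83, adjusted p = 0.0398). Bnip3 in day 91 villi was at 11.7 ± 10.5 CPM untreated and 19.2 ± 10.4, 18.3 ± 9.05, 15.8 ± 4.002 and 9.88 ± 5.4 CPM at 5, 20, 60 and 180 ppm, and in crypts its group means lay between 4.58 and 12.1 CPM.

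Ndrg1, a gene induced by hypoxia and other stresses, rose in day 91 villi. It read 0, 3.06, 8.47 and 14.2 CPM untreated and 11.6, 20.9, 21.4, 21.8 and 56.7 CPM at 180 ppm, and only the lowest exposed and highest untreated values overlapped. The difference was 2.14 (SE 0.67, edgeR adjusted p = 0.0219), or 4.40-fold, and the trend 0.40 per step (SE 0.09, adjusted p = 0.000129). The call at 180 ppm was lost without untreated mouse 6 (adjusted p = 0.139) or exposed mouse 485 (adjusted p = 0.167), which held the highest value, and with the default form (adjusted p = 0.109). With 1 mouse left out the log2 difference ranged from 1.61 (without mouse 485) to 2.85 (without untreated mouse 5). In day 91 crypts it read 0, 2.04, 4.82, 5.57 and 14.7 CPM untreated and 6.11, 6.79, 16.2, 18.1 and 21.5 CPM at 60 ppm, overlapping in range. This difference of 1.43 (SE 0.58, adjusted p = 0.0977) held in 3 of 11 alternatives and with 3 of 10 mice left out, and was lost without mouse 3, 6, 7, 8, 402, 403 or 406 (adjusted p 0.143 to 0.350). With 1 mouse left out it ranged from 1.07 (without untreated mouse 3) to 2.09 (without untreated mouse 5). Separate fits called Ndrg1 higher in these crypts at 180 ppm (1.31, adjusted p = 0.0676) and in the trend (0.16 per step, adjusted p = 0.0622). Beside the calls in day 91 crypts at 60 ppm, 4 of 10 villus markers were lower and 1 higher, and 4 of 7 smooth muscle and stroma markers (led by Tagln) were lower. Of the other lists there, 1 immune and 1 endothelial marker were lower, 1 crypt marker was higher and 1 lower, and 1 goblet marker was higher. At 180 ppm 4 of 10 villus and 2 of 7 smooth muscle and stroma markers and 1 immune marker were lower, and 1 crypt marker was higher. Their part in the levels of Slc2a1, Ndrg1 and Car9 was not tested.

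Ankrd37, an ankyrin repeat gene induced by hypoxia, was barely detected, with 368 counts in all and 93 libraries at 0. In day 8 villi it was at 0, 0, 0, 1.35 and 6.38 CPM untreated and at 0, 0, 4.24, 7.11 and 7.68 CPM at 1.4 ppm, and all villi from 5 to 180 ppm were at 0. The downward trend there (edgeR adjusted p = 0.0405) has a fitted slope that depends on how zeros are handled, and it was lost without mouse 49 (adjusted p = 0.228) and without mouse 90 (adjusted p = 0.153), a mouse at 0.1 ppm whose number stands apart from those of its group and whose label could not be checked. It was also lost with separate fits (adjusted p = 0.109) and with ppm as scores, where its adjusted p was 1. In day 91 villi all 4 untreated libraries were at 0 and no fold is given.

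**Figure D3:**
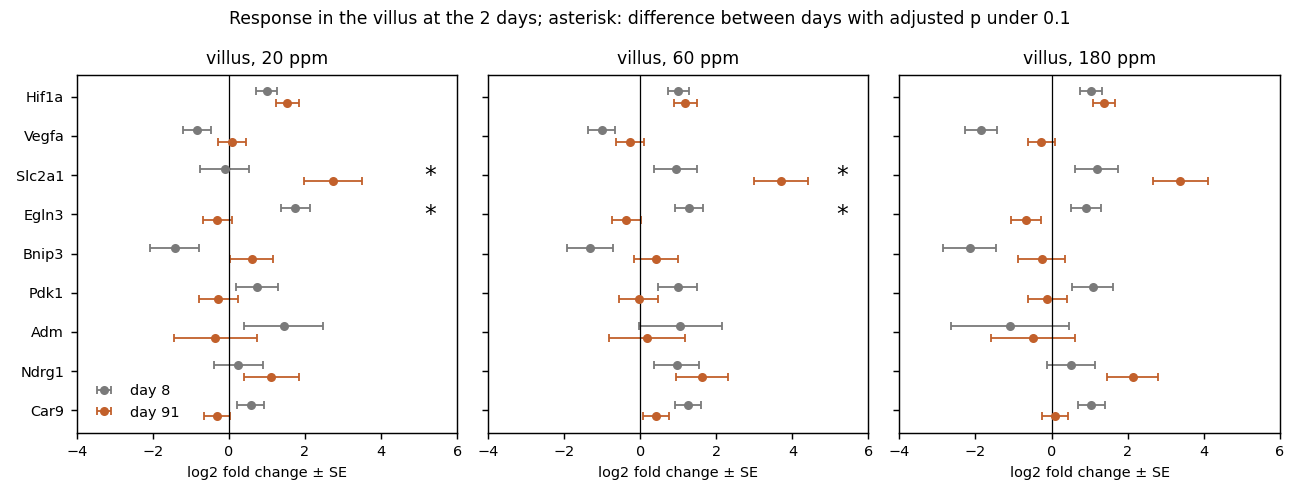
Log2 difference from untreated villi with its SE (horizontal axis) for each member but Ankrd37 (vertical axis) at 20, 60 and 180 ppm Cr(VI) (panels), on day 8 in grey and day 91 in orange, with asterisks at called differences between days. For Slc2a1 the day 91 points lie to the right of those of day 8 by 2.84 and 2.78 at 20 and 60 ppm, and for Egln3 they lie to the left.

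Whether a member responded differently between compartments was tested directly, and no such difference was called. At 20, 60 and 180 ppm, 0%, 0.0266% and 0.00379% of probes differed in response between villus and crypt on day 8 and 0.156%, 0.0683% and 0.224% on day 91. The smallest adjusted p among members was 0.350, for Hif1a at 20 ppm on day 91, where the villus response exceeded that of the crypt by 1.12 on the log2 scale (95% interval 0.34 to 1.90, edgeR), and at 180 ppm the excess was 0.74 (-0.04 to 1.51). Over these 6 comparisons 0 or 1 members had an unadjusted p below 0.05, and DESeq2 called none. The calls of Hif1a in villi and not in crypts are therefore not shown to be a difference between the compartments.

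Between days, differences in response were called in villi for Slc2a1 and Egln3. In crypts no member was called by edgeR at 20, 60 or 180 ppm, against 0.0114%, 5.58% and 0.11% of probes, with 1, 1 and 0 members at an unadjusted p below 0.05 and none called by DESeq2. In villi at 20 ppm, where 10.7% of probes were called, the response of Slc2a1 was larger on day 91 by 2.84 (SE 1.03, edgeR adjusted p = 0.0748) and that of Egln3 smaller by 2.06 in size (SE 0.54, adjusted p = 0.00917). At 60 ppm, with 9.46% of probes called, the differences were 2.78 (SE 0.97, adjusted p = 0.0667) for Slc2a1 and -1.64 (SE 0.54, adjusted p = 0.0483) for Egln3. At 180 ppm no member was called against 0.971% of probes, though 4 had an unadjusted p below 0.05 and DESeq2 called Egln3. The median probe was itself shifted between days by 0.69, 0.58 and 0.43 in villi and by 0.21 in crypts at 60 ppm, and the share of calls that were higher on day 91 fell from 74.8%, 75.9% and 86.7% to 49.6%, 38.7% and 62.0% in villi, and from 80.8% and 89.7% to 48.4% and 66.7% in crypts at 60 and 180 ppm, with DESeq2's size factors. Between compartments on day 91 that share went from 97.6%, 88.9% and 91.5% to 85.7%, 77.8% and 81.0%. Without the doubtful libraries, Slc2a1 lost both calls (2.54, adjusted p = 0.162, and 2.46, adjusted p = 0.170), and likewise with DESeq2's size factors (2.56, adjusted p = 0.130, and 2.40, adjusted p = 0.149), while without these libraries Egln3 kept them (-2.20, adjusted p = 0.0107, and -1.79, adjusted p = 0.0565). With the depth covariate Egln3 lost them as well (-1.39, adjusted p = 0.261, and -0.98, adjusted p = 0.540), as did Slc2a1 (2.49, adjusted p = 0.288, and 2.42, adjusted p = 0.323). With log10 total count as a covariate Egln3 lost the call at 60 ppm (-1.60, adjusted p = 0.104) and so did Slc2a1 (2.69, adjusted p = 0.121), and at 20 ppm Slc2a1 lost it with every probe of at least 1 count (adjusted p = 0.101) and with probes summed (0.109). Other members were called in villi in alternatives alone. The response of Bnip3 was higher on day 91 at 20 ppm with thinned counts (2.35, adjusted p = 0.0556), log10 total count (2.33, adjusted p = 0.0868) and probes summed (2.31, adjusted p = 0.0331), and at 60 ppm with thinned counts (2.26, adjusted p = 0.0684) and probes summed (1.85, adjusted p = 0.0927). That of Car9 was lower with DESeq2 at 20 ppm (-1.32, adjusted p = 0.0738) and 60 ppm (-1.28, adjusted p = 0.0856), and that of Vegfa higher at 180 ppm with thinned counts (1.61, adjusted p = 0.0969). Ankrd37 was called higher at 20 and 60 ppm with the default form, with no fold given. In crypts Slc2a1 was called at 60 ppm with the acinar sum as a covariate (1.82, adjusted p = 0.0843).

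The other genes of the pathway were followed in 4 lists at 180 ppm. Of all probes, 1.05% were higher and 3.08% lower in day 8 crypts, 3.8% and 2.69% in day 91 crypts, 2.5% and 3.46% in day 8 villi and 8.9% and 4.95% in day 91 villi, with medians of -0.04, -0.00, -0.10 and 0.11. These shares come from edgeR with TMM, and shares of all probes under DESeq2 are not given here. With DESeq2's size factors in edgeR, 1410 probes were higher and 2049 lower in day 91 villi, against 2346 and 1305 with TMM. Of 19 tested genes of the HIF machinery (the subunits, hydroxylases, the degradation complex and coactivators), edgeR called none in day 8 crypts (2 higher and 2 lower at an unadjusted p below 0.05, and none called by DESeq2), and 1 was higher in day 91 crypts (Cul2, the scaffold of the von Hippel-Lindau ubiquitin ligase, 24.9 ± 11.4 to 45.3 ± 7.87 CPM, adjusted p = 0.0904, where DESeq2 called none). Lower in day 8 villi was 1 gene, Epas1, which encodes HIF-2 alpha (24.8 ± 8.71 to 9.37 ± 6.7 CPM, -1.41, SE 0.47, adjusted p = 0.0723), where DESeq2 called 3 lower. In day 91 villi 4 were higher and 1 lower (2 and 2 by DESeq2), against 8.9% and 4.95% of all probes. Among them were the coactivator gene Crebbp (112 ± 33.2 to 233 ± 72.0 CPM, no overlap, adjusted p = 0.00118) and Hif1an, the asparaginyl hydroxylase that blocks coactivator binding (10.1 ± 8.8 to 31.8 ± 14.9 CPM, adjusted p = 0.0238). Cited2, which competes with HIF for coactivators, was lower (32.4 ± 38.0 to 10.4 ± 4.38 CPM, adjusted p = 0.0183). Its groups overlapped, and the untreated mean was raised by 1 library at 88.2 CPM. The Cited2 medians were 17.5 CPM untreated and 10.7 CPM at 180 ppm. The list's median was 0.41 there, beside 0.11 for all probes, and 0.03, -0.06 and 0.01 in day 8 crypts, day 91 crypts and day 8 villi.

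Of 20 genes of glucose uptake and glycolysis, 7 were higher and 2 lower in villi on either day (2.5% and 3.46% of all probes on day 8, 8.9% and 4.95% on day 91), 4 were higher and 2 lower in day 91 crypts (3.8% and 2.69%), and 2 were lower in day 8 crypts, where edgeR called none higher (1 at an unadjusted p below 0.05 and 1 called by DESeq2). In day 91 villi DESeq2 called 8 higher and 4 lower. The list medians were 0.27 and 0.51 in day 8 and day 91 villi and -0.14 and 0.04 in crypts, beside -0.10, 0.11, -0.04 and -0.00 for all probes. Without the doubtful libraries 6 were higher and 2 lower in day 8 villi and 1 was lower in day 8 crypts, with Gapdh and Pkm lost. Hk2, the inducible hexokinase, read 20.1 ± 8.42 CPM in untreated day 8 villi and 67.6 ± 23.6 CPM at 180 ppm (1.74, SE 0.34, edgeR adjusted p = 0.000186), and 21.6 ± 15.3 and 75.8 ± 6.95 CPM on day 91 (1.80, SE 0.36, adjusted p = 0.000101). Aldoa, an aldolase, was higher by 1.64 and 1.23 in villi and by 0.79 in day 91 crypts, where Ldha, lactate dehydrogenase A, was higher by 0.90 (SE 0.26, adjusted p = 0.0212). Ldha was also higher in villi, from 648 ± 132 to 1362 ± 198 CPM on day 8 (1.07, adjusted p = 0.00726) and 692 ± 117 to 1464 ± 219.8 CPM on day 91 (1.08, adjusted p = 0.00388). Hk2 was also higher in day 91 crypts (41.9 ± 10.7 to 81.5 ± 20.6 CPM, 0.95, adjusted p = 0.0367). Exposed and untreated groups did not overlap for Aldoa in these comparisons nor for Hk2 and Ldha in villi, while those of Hk2 and Ldha in day 91 crypts overlapped. Pfkfb4, a regulator of phosphofructokinase known to be induced by hypoxia, was lower in all 4 sets, from 122 ± 37.6 to 35.7 ± 9.35 CPM in day 8 crypts, 113.5 ± 19.6 to 43.2 ± 16.2 CPM in day 91 crypts, 215 ± 98.7 to 78.3 ± 16.0 CPM in day 8 villi and 215 ± 57.0 to 74.3 ± 29.4 CPM in day 91 villi. None of these pairs of groups overlapped (differences -1.76, -1.39, -1.45 and -1.54, adjusted p from 9.7e-07 to 0.000174). Pkm, a pyruvate kinase, was lower in day 8 crypts (-0.82, SE 0.28, adjusted p = 0.0997), a call lost without the doubtful libraries (-0.47, adjusted p = 0.583).

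**Figure D4:**
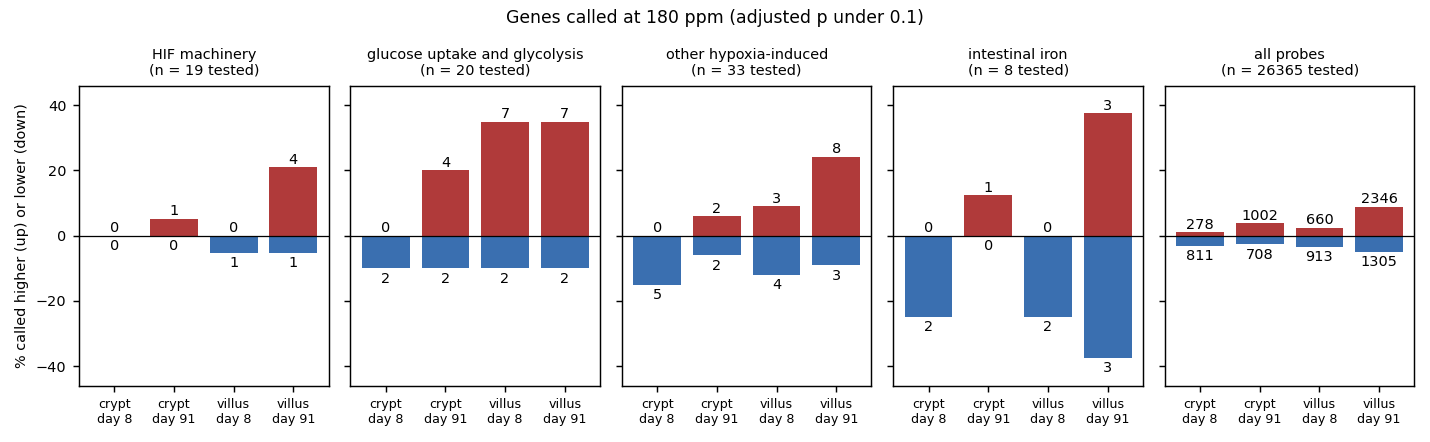
Share of each list, and of all probes, called higher (red, upward) or lower (blue, downward) at 180 ppm (vertical axis, %) in each compartment and day (horizontal axis), with the number of calls at each bar. In day 91 villi 8 of 33 other hypoxia-induced genes and 7 of 20 glycolysis genes were higher, with 3 and 2 lower, and in day 8 crypts no gene of any list was higher.

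Of 33 tested other genes known to be induced by hypoxia, 5 were lower and none higher in day 8 crypts (edgeR; 3 higher at an unadjusted p below 0.05 and 1 called by DESeq2), 2 were higher and 2 lower in day 91 crypts, 3 higher and 4 lower in day 8 villi and 8 higher and 3 lower in day 91 villi (medians -0.40, 0.04, -0.37 and 0.71, beside -0.04, -0.00, -0.10 and 0.11 for all probes). Of all probes 3.08% were lower in day 8 crypts, 3.8% higher and 2.69% lower in day 91 crypts, 2.5% and 3.46% in day 8 villi and 8.9% and 4.95% in day 91 villi, so that the count in day 91 crypts stood near the background. DESeq2 called 5 higher in day 91 villi. Without the doubtful libraries 3 were lower in day 8 crypts (Angptl4, Mxi1 and Insig2, with Flt1 and Selenbp1 lost) and the 7 day 8 villus calls were kept. At 60 ppm in day 8 villi the balance differed, with 6 of this list higher and 2 lower, against 2.94% and 3.63% of all probes. Ero1l, an oxidase for disulfide bonds in the endoplasmic reticulum, was higher in 3 sets, from 205 ± 54.7 to 715 ± 143 CPM in day 91 villi (1.80, SE 0.25, edgeR adjusted p = 2.1e-08), and by 1.28 in day 8 villi and 1.32 in day 91 crypts. Bhlhe40, a repressor of transcription, was higher on day 91 in crypts (91.7 ± 15.7 to 292 ± 54.3 CPM) and villi (144.5 ± 40.6 to 366 ± 52.6 CPM), and Mt2, a metallothionein that binds metals, in villi on day 91 (2.24, SE 0.75, adjusted p = 0.0371) and day 8 (2.89 ± 2.42 to 88.0 ± 23.4 CPM, adjusted p = 4.4e-05). Angptl4, a secreted inhibitor of lipoprotein lipase, was lower on day 8 in crypts (74.8 ± 28.9 to 9.82 ± 4.91 CPM, -2.98, SE 0.51, adjusted p = 7.3e-06) and villi (-1.98, adjusted p = 0.00421). Mxi1, an antagonist of MYC, was lower in all 4 sets, by -1.36 in day 8 crypts, -1.26 in day 91 crypts, -0.99 in day 8 villi and -1.59 in day 91 villi (483 ± 41.3 to 161 ± 69.2 CPM, adjusted p = 6.9e-06). Insig2 was lower in day 8 crypts (-1.88, adjusted p = 0.022) and day 91 villi (-1.76, adjusted p = 0.00249), and Ccng2, an atypical cyclin, in day 91 crypts (23.0 ± 5.62 to 5.98 ± 2.23 CPM, -1.93) and in villi on day 8 (-1.14) and day 91 (-1.16).

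Among 8 genes of intestinal iron handling, many of them under HIF-2, 2 were lower in day 8 crypts, 1 was higher in day 91 crypts, 2 were lower in day 8 villi, and 3 were higher and 3 lower in day 91 villi (medians -0.61, 0.25, -0.28 and 0.26, beside -0.04, -0.00, -0.10 and 0.11 for all probes). Of all probes 3.08% were lower in day 8 crypts, 3.8% higher in day 91 crypts, 3.46% lower in day 8 villi and 8.9% higher and 4.95% lower in day 91 villi, and DESeq2 called none in day 91 crypts, 3 lower in day 8 villi and 2 in each direction in day 91 villi. Heph, the ferroxidase hephaestin, was lower in day 8 crypts (-1.14, lost without the doubtful libraries at -0.73, adjusted p = 0.296), day 8 villi (-0.99) and day 91 villi (172 ± 41.5 to 69.2 ± 28.3 CPM, -1.31, SE 0.30, edgeR adjusted p = 0.000804). Tfrc, the transferrin receptor, was higher on day 91 in crypts (169.5 ± 43.9 to 402 ± 125 CPM, 1.25, adjusted p = 0.0775) and villi (43.1 ± 43.7 to 163 ± 54.3 CPM, 1.91, adjusted p = 0.00644), and without the doubtful libraries in day 8 villi (1.96, adjusted p = 0.00535, against 0.98, adjusted p = 0.266, with them), and Trf, transferrin, in villi (1.44 ± 2.87 CPM, with 3 of 4 libraries at 0, to 12.6 ± 7.83 CPM, adjusted p = 0.0225). Cybrd1, the duodenal ferric reductase, was at 14.6 ± 15.9 CPM in untreated day 8 villi, 2 of 5 libraries being at 0. At 180 ppm it was at 0 in all 4 villi. With 3 counts per library taken as the floor, its mean was at least 15.1-fold lower (edgeR adjusted p = 0.00626). That fold compares means, and the untreated libraries at 0 equalled the exposed ones. In day 91 villi Cybrd1 was lower as well (35.2 ± 43.2 to 7.95 ± 10.4 CPM, -2.18, adjusted p = 0.0281), with overlapping groups. There the untreated mean was raised by 1 library at 99.7 CPM, and the medians were 16.7 CPM untreated and 3.26 CPM at 180 ppm. Fth1, the ferritin heavy chain, was lower in day 8 crypts (3908 ± 1413 to 1497 ± 313 CPM, -1.39, adjusted p = 0.00212) and, without the doubtful libraries alone, in day 8 villi (-0.96, adjusted p = 0.0915).

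The genes whose 28 group means of log2 CPM were most like those of Hif1a, among 6823 genes with a mean count of at least 50, were Abcb1a (Pearson r = 0.892), Rap2b (0.887), Epha2 (0.880), Gm49321 (0.879) and Elf4 (0.867). The 28 means share libraries, depth and scaling, and these values are a description. Abcb1a encodes an efflux transporter, Rap2b a small GTPase, Epha2 an ephrin receptor and Elf4 an ETS transcription factor.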

How the data were processed

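RNA of 71 crypt and 66 villus libraries was measured with TempO-Seq. The deposited table holds raw counts of reads per probe, made by the authors without normalization; the submitters' notes name Bowtie and bcl2fastq 2.17.1.14. All count columns were used (0 left out), with groups from the labels; mouse 90, whose number stands apart from those of its group and which made its day 8 crypt group the only one of 6, was kept at 0.1 ppm as labelled, and the label was not checked.

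Counts were fitted with edgeR 4.0.16 (quasi-likelihood, non-legacy form, TMM, filterByExpr, prior count 0.125) in one model of 28 groups over 26365 probes of 19020 genes. p-values were adjusted by the Benjamini-Hochberg method over all probes, with a threshold of 0.1. The SE is the log2 fold change divided by the square root of F, without its sign. Trends used equally spaced scores from 0 to 6. Also used were limma 3.58.1, DESeq2 1.42.0 (which fell back to a local dispersion trend), R 4.3.3, Python 3.11.15, numpy 2.4.6, pandas 2.3.3 and matplotlib 3.10.9. The fits were tested on simulated counts. A count of 3 per library served as the floor for folds against 0.

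Members, lists and markers were chosen with earlier results of these data known. Genes named from the lists were the 3 called at 180 ppm with the smallest adjusted p in each compartment and day, with calls in other sets. Likeness to Hif1a named the 5 highest Pearson correlations. Crypt and villus of a mouse were paired: over 15114 probes, deviations of the 66 pairs had a median correlation of 0.107 (62 above 0), against -0.0247 for 269 pairs of other mice of the same group. Alternatives were other normalizations, filters, covariates, trend scores, tools and left-out libraries. Probe sequences were not used, so cross-reading of near-identical copies (Gapdh, Aldoa, Fth1) was not checked. The markers Clps, Tff2 and Tff3 were not analysed here.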

Additional observations from a re-analysis of the deposited data

Results flagged for a closer look

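Of 272 groups of 4 to 6 libraries tested for a single value far from the rest (Dixon's test at 95%), 26 had one, where chance gives about 1 in 20. Of these, 16 were in 48 groups of Adm and Ankrd37, which have many libraries at 0, and 10 were in the 224 groups of the other members (4.46%), near the share that chance gives. Among the more abundant members, Hif1a stood at 134 CPM in the day 91 crypt of mouse 85 (0.1 ppm), Slc2a1 at 15.01 CPM in the untreated day 91 crypt of mouse 5, and Egln3 at 50.8 CPM in the day 8 crypt of mouse 126 (0.1 ppm), 13.02 CPM in the day 8 villus of mouse 529 (180 ppm) and 0.972 CPM in the day 91 villus of mouse 245 (5 ppm). Ndrg1 stood at 44.5 CPM in the day 8 crypt of mouse 527 and 56.7 CPM in the day 91 villus of mouse 485 (both 180 ppm). Pdk1 was high in both compartments of mouse 369 (day 8, 20 ppm), at 26.4 CPM in the crypt and 25.7 CPM in the villus, and Bnip3 stood at 10.4 CPM in the day 8 villus of mouse 289 (5 ppm).

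For Adm, near the limit of detection, the values were 7.08 CPM (day 8 untreated crypt), 4.81 CPM (day 8 crypt, 180 ppm), 6.12 CPM (day 91 crypt, 5 ppm), 8.75 CPM (day 8 villus, 5 ppm), 15.4 CPM (day 8 villus, 20 ppm) and 2.77 CPM (day 8 villus, 180 ppm). For Ankrd37 in crypts they were 3.24, 1.47, 1.67 and 2.29 CPM on day 8 (0, 1.4, 20 and 180 ppm) and 2.91, 5.06 and 2.31 CPM on day 91 (0, 5 and 180 ppm). For Ankrd37 in villi they were 6.38 CPM on day 8 (untreated) and 3.14 and 1.60 CPM on day 91 (0.1 and 5 ppm).

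The villus response differed between day 91 and day 8 for Slc2a1 (2.84 at 20 ppm and 2.78 at 60 ppm on the log2 scale) and Egln3 (-2.06 and -1.64), by edgeR's interaction test. Not all of these calls held in the alternatives. Slc2a1 lost both without the doubtful libraries and with DESeq2's size factors, and both members lost theirs with the depth covariate.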

How the results depend on the processing

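No call of a member reversed under any alternative, and all 45 held with acinar markers as a covariate. Of the 45, 33 held with the depth covariate and 35 with edgeR's default form, and 10 of 15 trends held with ppm as scores. Over 351 refits of called results with 1 mouse left out, 300 kept the call. The limits are few counts for Slc2a1, Ndrg1, Adm and Ankrd37 in untreated day 91 villi, and fewer detected probes in untreated day 91 villi.

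The number of members called in day 91 crypts at 60 ppm (3) was 1 with DESeq2, with its size factors in edgeR, with every probe of at least 1 count, with log10 total count as a covariate and with thinned counts, 0 with edgeR's default form, 4 with separate fits (Hif1a gained) and 2 with probes summed (Hif1a gained, Car9 and Ndrg1 lost) and with the depth covariate (Ndrg1 lost). At 180 ppm there (1) it was 0 with DESeq2, the default form and thinned counts, 2 with probes summed and 4 with separate fits. In day 8 villi at 180 ppm (4) it was 2 with the default form and with separate fits. At 20 ppm in day 8 villi (2) it was 4 with probes summed (Bnip3 and Vegfa gained) and 1 with separate fits (Hif1a lost). In day 91 villi at 5 ppm (3) it was 0 with the depth covariate (detected probes after thinning) and 4 with probes summed (Hif1a gained). In day 8 villi at 5 ppm (0) it was 2 with DESeq2 and 1 with thinned counts and with a mean count of at least 10. In crypts at 20 ppm (0) it was 1 on day 8 with DESeq2 and with probes summed, and 2 on day 91 with separate fits. For trends, day 8 crypts (1) gave 2 without the 2 libraries that went against their labels (the doubtful libraries) and with ppm as scores, day 8 villi (6) gave 3 with ppm as scores, and day 91 villi (5) gave 3 with the default form, log10 total count and the depth covariate. In the day 8 villus trends Slc2a1 and Pdk1 were gained with probes summed, with a mean count of at least 10 and without the doubtful libraries. In those of day 91 crypts Car9 was lost with probes summed and Ndrg1 gained with separate fits. Between untreated compartments on day 8 (0) it was 1 with DESeq2 and without the doubtful libraries, and on day 91 (1) it was 2 with DESeq2, its size factors, a mean count of at least 10 and summed probes, 3 with thinned counts and 0 with the depth covariate. The day difference in villi at 180 ppm (0) was 1 with DESeq2 and with thinned counts. The replicate block of mouse was fitted for compartment comparisons alone, where the untreated day 8 count was 1 (Vegfa) and no other member's call changed. The shares of all probes called in these alternatives are not given beside these counts.

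With 1 mouse left out, the number called ranged over 0 to 1 in day 8 crypts at 180 ppm (0 at 60 ppm), 0 to 2 and 1 to 2 in day 91 crypts at 180 and 60 ppm, 2 to 4 and 1 to 4 in day 8 villi, and 2 to 3 in day 91 villi at either. Trends ranged over 1 to 2, 3 to 4, 5 to 8 and 3 to 5 in day 8 crypts, day 91 crypts, day 8 villi and day 91 villi. Untreated compartments ranged over 0 to 1 on both days. Not run were leaving out mice for day differences, for 0.1 to 5 ppm, for trends without 20 or 60 ppm mice and for compartment differences.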
